A study of Homo sapiens with 6 samples.

Results

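A set of 10 histone lysine demethylase genes was followed probe by probe in A549, a cell line from a human lung adenocarcinoma, after transfection with a plasmid for NME2 or with its control plasmid. The list holds KDM5A, KDM5B, KDM5C, KDM1A, KDM2A, KDM2B, KDM3A, KDM4A, KDM4B and KDM6B, and a probe was taken when the platform annotation gave it one of these symbols. This gave 12 of the 47231 probes, which belong to 9 genes, while no probe was named KDM5A in the annotation used here. Of these, 9 probes of 8 genes were detected on at least 3 of the 6 arrays, with detection meaning a deposited detection p-value under 0.05. The family was selected on the measured difference of KDM5C, whose signal was already known to be lower in the arrays labelled NME2 induced than in control arrays. For its members the differences between the groups are therefore given as a description with their errors, and no p-value is printed for them. Which of them lay past the threshold of the fit across all probes is stated once, as part of how the family came to be selected.

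The arrays were Illumina Human HT-12 v4 bead arrays, read in 1 colour. The 3 arrays labelled NME2 induced came from cells that received pcDNA-NME2-MYC, a plasmid for MYC-tagged NME2, and the 3 control arrays from cells that received pcDNA-MYC. RNA was taken 48 h after transfection in both groups, and the submitters describe the replicates as biological. Both groups are the same cell line, which expresses NME2 of its own, and both received a plasmid; the share of cells that took it up is not given in the sources used here.

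Histones are methylated on defined lysines, and lysine demethylases remove these marks. KDM1A belongs to the amine oxidases that use FAD, whereas the other members carry a JmjC domain that needs iron and 2-oxoglutarate. Methylation of H3K4 marks promoters and enhancers in use, that of H3K9 and H3K27 is linked to silent chromatin, and that of H3K36 to transcribed gene bodies, so that an eraser can act for or against transcription depending on the lysine it serves.

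Between 19043 and 20047 probes were detected on the arrays labelled NME2 induced and between 19916 and 20726 on the control arrays. Across detected probes, the log2 signals of arrays of 1 label correlated at 0.990 to 0.993 and those of arrays of different labels at 0.988 to 0.991. On the first principal component NME2 induced replicate 3 stood apart at 22.9, while the other arrays of its label were at 8.59 and 10.7 and the control arrays between -15.5 and -12.3. Probes of the NME2 locus moved in both directions. Of 8 detected probes annotated to NME1, NME2 or their readthrough NME1-NME2, 1 passed limma's adjusted threshold as higher (ILMN_2234873 of NME2, log2 fold change 1.04) and 2 as lower (NME1-NME2, -1.99 and -1.89), so that the groups are called by their labels and each direction below follows the labels. The line showed epithelial and A549 markers, with KRT8, KRT19, EPCAM, CDH1, ALDH1A1 and AKR1B10 detected, but the probes of KRT18 and AKR1C1 did not reach detection on 3 arrays. Of the markers of other cell types, PTPRC, CD3E, PECAM1, CDH5 and DES were not detected on 3 arrays, while single probes of CD14, COL1A1 and COL1A2 were. None of these detected markers passed the adjusted threshold of limma between the groups, with 1 higher and 1 lower of 12 detected marker probes at an unadjusted p under 0.05. Over all detected probes limma gave 6.28% higher and 7.32% lower at that level, 13.6% in all.

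KDM5C, which erases di- and trimethylation of H3K4 and is encoded on the X chromosome, had the largest difference between the groups among the 9 detected probes. Its single probe (ILMN_1798224) had deposited signals of 14.5, 14.8 and 15.1 in the arrays labelled NME2 induced, against 39.0, 45.0 and 35.5 in control arrays. The groups were wide apart, and the 3 arrays labelled NME2 induced lay within 1 unit of signal of each other. Mean signals were 14.8 ± 0.265 in the arrays labelled NME2 induced and 39.8 ± 4.78 in control arrays (SD, n = 3 each), a ratio of 0.372. After background modelling and an offset of 16 the log2 signals averaged 4.95 ± 0.012 in the arrays labelled NME2 induced and 5.79 ± 0.12 in control arrays (SD, n = 3 each), a log2 fold change of -0.85 (SE 0.09), or 1.80-fold lower. This scale understates the change of a dim probe, as the offset is added to both groups. The lowest signal of any detected probe lay between 11.6 and 13.1 on the arrays labelled NME2 induced, so that KDM5C was close to the detection limit there, with detection p-values between 0.0223 and 0.0263. In control arrays its detection p-values were listed at 0. As the arrays read bulk RNA, fewer cells with KDM5C transcript and less of it per cell cannot be told apart.

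The KDM5C probe was the only one of the 9 that lay past the threshold of an adjusted p of 0.05 by limma over all 19394 detected probes, and it was lower. Over all detected probes, 0.144% passed as lower and 0.0928% as higher, 0.237% in all. Nothing is read from this count, as KDM5C is the gene that led to the list. Leaving out any 1 of the 6 arrays kept the log2 fold change between -0.90 and -0.78 (-0.85 without NME2 induced replicate 3, the array that stood apart) but put KDM5C short of the threshold, as did the methods' t-test and a replicate block with all 6 arrays kept. Without the background correction added here, where signals under 16 were set to 16, the log2 fold change was -1.31. Each KDM5C signal in the arrays labelled NME2 induced lay under that floor, so that -1.31 rests on the floor for this group. With normexp that did not use the control distribution and an offset of 50 the log2 fold change was -0.39. KDM5C has a close counterpart on the Y chromosome, KDM5D, and whether the probe also reads that transcript was not checked.

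KDM5B, the other listed gene of the KDM5 group with a probe, serves the same lysine. It had signals of 467, 478 and 501 in the arrays labelled NME2 induced, against 504, 571 and 497 in control arrays. The groups overlapped, and the log2 fold change of -0.11 (SE 0.09) was -0.05 without control replicate 2, the highest array.

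KDM1A, or LSD1, erases mono- and dimethylation of H3K4 as part of the CoREST complex. Its signals were 436, 370 and 477 in the arrays labelled NME2 induced, against 444, 503 and 485 in control arrays. Replicate 2 was the lowest array labelled NME2 induced, the ranges overlapped, and the log2 fold change of -0.16 (SE 0.11) was -0.06 without that array and -0.24 without replicate 3.

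**Figure D1:**
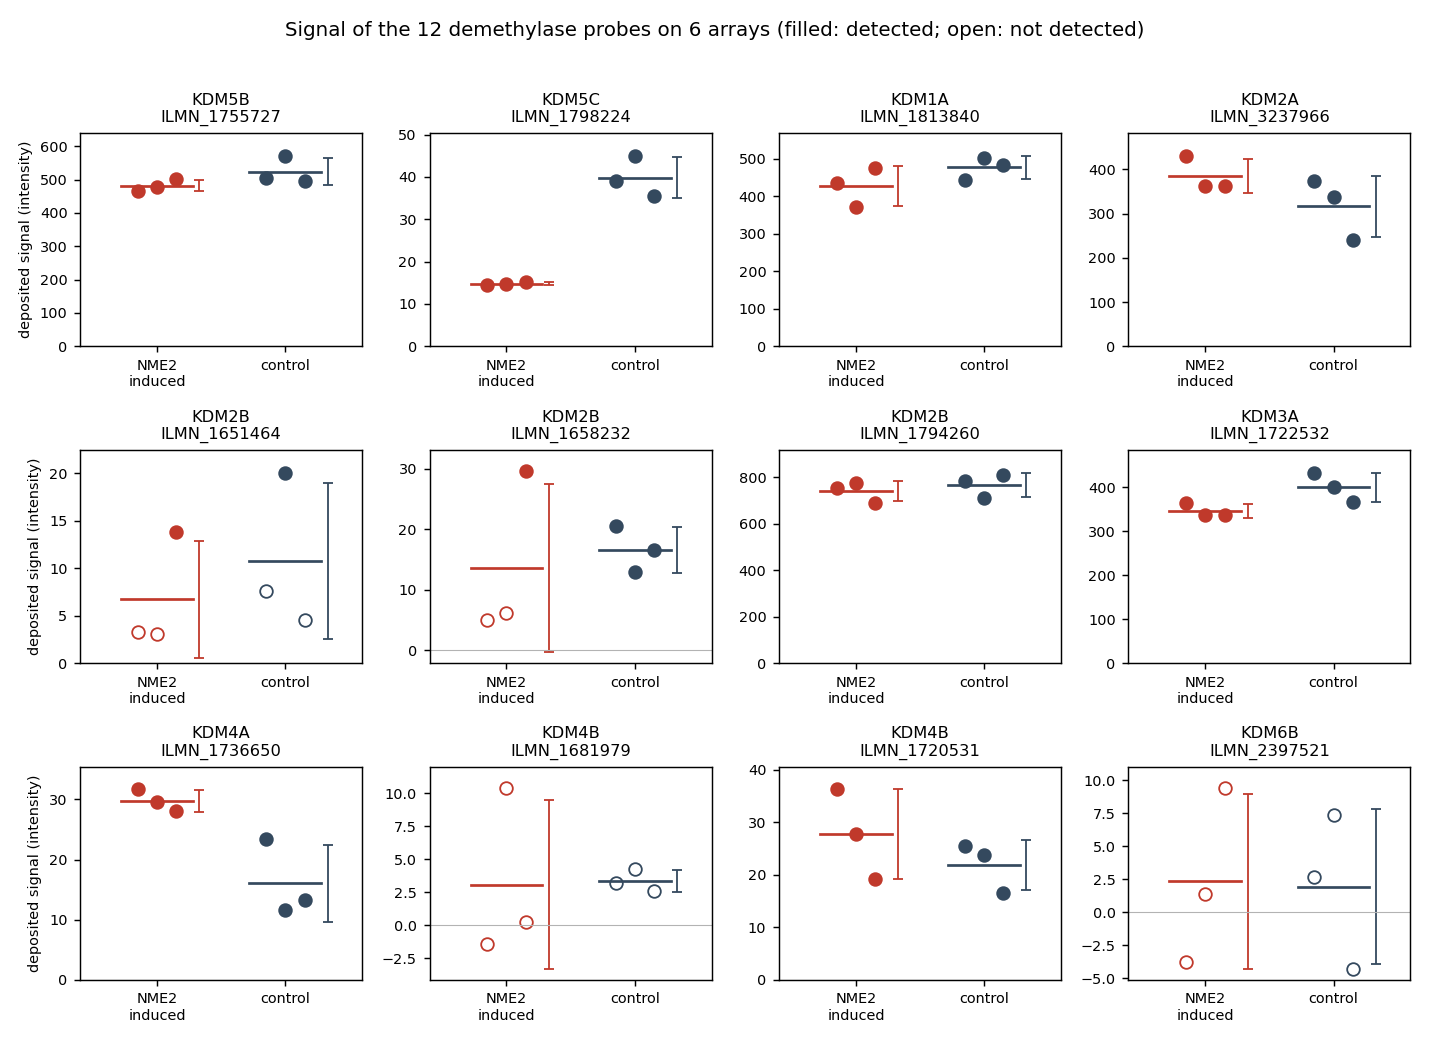
Deposited signal (intensity, linear scale, its own axis for each probe) of the 12 probes on the arrays labelled NME2 induced (left of each panel) and the control arrays (right). Points are arrays, filled where detected, lines are group means and bars SD (n = 3); KDM5C lies at 14.5 to 15.1 in the arrays labelled NME2 induced and at 35.5 to 45.0 in control arrays.

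KDM4A and KDM4B, the listed genes of the KDM4 group, act on trimethylated H3K9 and had log2 fold changes above 0. Outside the list, the KDM4 genes KDM4C and KDM4D were at -0.00 (SE 0.26) and -0.20 (SE 0.16). KDM4A, which also acts on H3K36, was read by a dim probe (ILMN_1736650) with signals of 31.7, 29.6 and 28.1 in the arrays labelled NME2 induced, against 23.4, 11.6 and 13.2 in control arrays. The groups did not overlap, and control replicate 1 lay nearest to the arrays labelled NME2 induced. Control replicates 2 and 3 were close to the detection limit, with detection p-values of 0.0379 and 0.0275. The lowest signals of any detected probe on these arrays were 10.7 and 11.8. Mean log2 signals were 5.51 ± 0.057 in the arrays labelled NME2 induced and 4.99 ± 0.26 in control arrays (SD, n = 3 each), a log2 fold change of 0.52 (SE 0.14), which exceeded in size that of 97.7% of the detected probes. It was 0.67 without control replicate 1, 0.42 without control replicate 2 and 0.54 without NME2 induced replicate 3, and 0.23 with normexp that did not use the control distribution and an offset of 50.

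**Figure D2:**
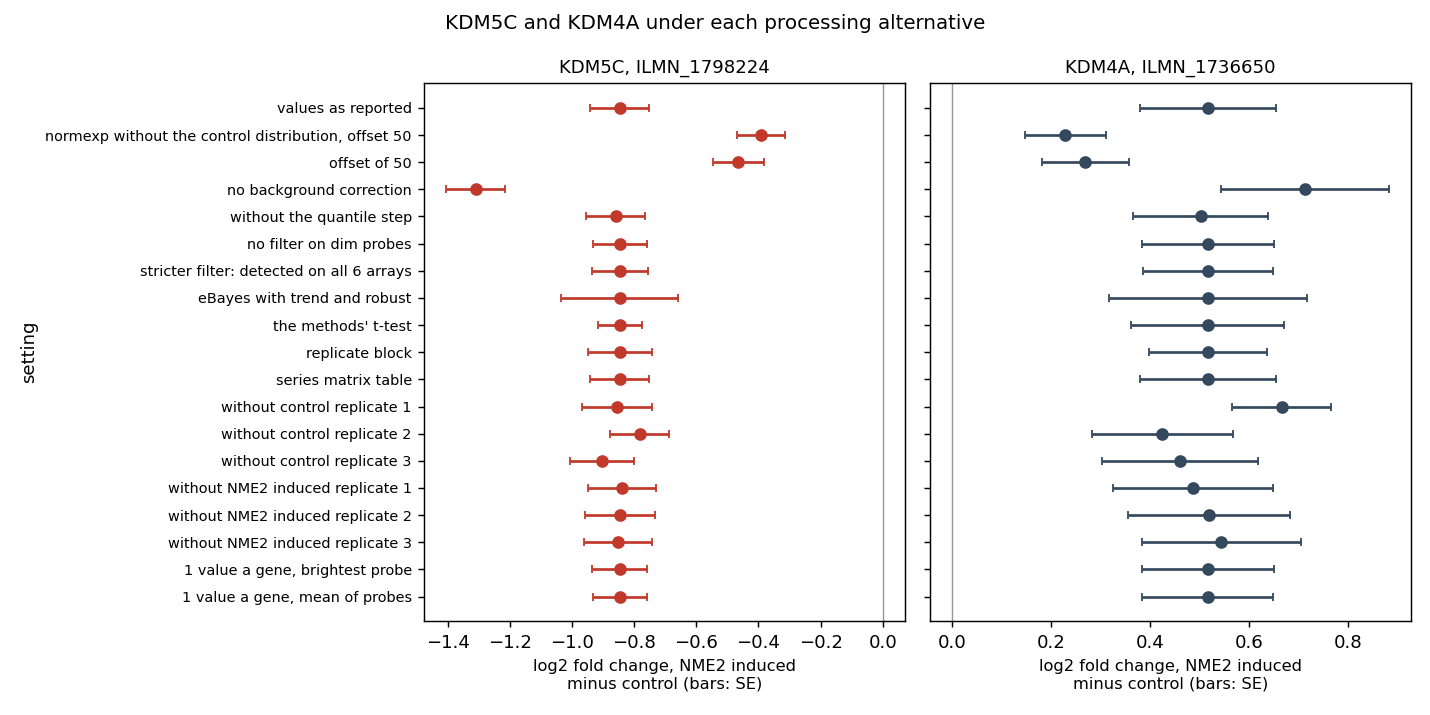
Log2 fold change (arrays labelled NME2 induced minus control arrays, x axis) with its SE for the probes of KDM5C (left) and KDM4A (right) under the values as reported and each processing alternative (y axis). KDM5C ran from -1.31 to -0.39 and KDM4A from 0.23 to 0.71, each on its own side of 0. The values of -1.31 and 0.71 are those without background correction, where signals under 16 were set to 16.

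KDM4B had 2 probes. The detected one (ILMN_1720531) gave signals of 36.3, 27.7 and 19.2 in the arrays labelled NME2 induced, against 25.5, 23.7 and 16.5 in control arrays, a log2 fold change of 0.20 (SE 0.16) with overlapping groups. It was 0.06 without NME2 induced replicate 1, 0.09 without control replicate 3 and 0.34 without NME2 induced replicate 3. The second (ILMN_1681979) was detected on 0 arrays, with signals between -1.42 and 10.4 in the arrays labelled NME2 induced and between 2.63 and 4.28 in control arrays. The value for KDM4B thus comes from 1 of its probes.

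KDM3A, which erases mono- and dimethylation of H3K9 and is known as a hypoxia-induced gene, had signals of 364, 336 and 336 in the arrays labelled NME2 induced, against 433, 399 and 366 in control arrays. The groups did not overlap, but the highest array labelled NME2 induced and the lowest control array were separated by 364 against 366. The log2 fold change was -0.20 (SE 0.10), on the scale on which KDM5C was at -0.85.

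Signals of the groups did not overlap for 3 of the 9 detected probes, KDM4A as higher and KDM5C and KDM3A as lower. Over all detected probes this held for 20.9%, with 10.1% higher and 10.8% lower. KDM5C is among the 3 because the family was selected on its difference, so that nothing is read from this count.

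KDM2A and KDM2B carry a zinc finger that binds unmethylated CpG sites and act on H3K36. KDM2A had signals of 431, 363 and 362 in the arrays labelled NME2 induced, against 374, 337 and 240 in control arrays. The groups overlapped, with control replicate 3 the lowest array, and the log2 fold change of 0.29 (SE 0.17) was 0.11 without that array.

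KDM2B, which also recruits the Polycomb complex PRC1.1 to CpG islands, was read by 3 probes. The bright one (ILMN_1794260) had signals of 752, 776 and 691 in the arrays labelled NME2 induced, against 785, 710 and 810 in control arrays. Its log2 fold change of -0.05 (SE 0.10) was the smallest in size of the 9, and ran between -0.11 without control replicate 2 and -0.0057 without NME2 induced replicate 3. A dim probe (ILMN_1658232) had signals of 4.98, 6.16 and 29.5 in the arrays labelled NME2 induced, against 20.5, 12.9 and 16.6 in control arrays. It was detected on 1 array labelled NME2 induced, replicate 3, and on 3 control arrays. Its log2 fold change of -0.14 (SE 0.25) had no settled direction. It was -0.45 without that array, 0.025 without NME2 induced replicate 1, 0.0057 without replicate 2 and -0.06 without control replicate 1. Without background correction it was 0.16, but there signals under 16 were set to 16, which raised those of 4.98, 6.16 and 12.9. The remaining probe (ILMN_1651464) was detected on 1 array of each label, at 13.8 on NME2 induced replicate 3 and at 20.1 on control replicate 2. Replicate 3 was thus the highest array labelled NME2 induced for both dim probes and the lowest for the bright one, and the dim probes give no level for the group.

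KDM6B, an eraser of H3K27 methylation, was detected on 0 arrays. Its probe (ILMN_2397521) had signals of -3.74, 1.37 and 9.38 in the arrays labelled NME2 induced, against 2.66, 7.38 and -4.25 in control arrays, where values below 0 come from background subtraction. A difference in KDM6B was not detectable at this signal.

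Within groups, the detected probes varied by different amounts. The pooled SD of log2 signal was 0.08 for KDM5B, 0.09 for KDM5C, the bright KDM2B probe and KDM3A, 0.14 for KDM1A, 0.19 for KDM4A, 0.24 for KDM4B, 0.25 for KDM2A and 0.40 for the dim KDM2B probe. The last of these was larger than that of 97.3% of the detected probes, whereas the SD of KDM5C lay at the 20.3 percentile, over probes of any level. The SD of KDM5C pools 0.012 in the arrays labelled NME2 induced with 0.12 in control arrays. The former lie near the detection limit, where the offset compresses log2 values, so that the percentile is no measure of precision. The SE of the KDM5C log2 fold change depended on the moderation. It was 0.09 as reported and 0.19 with trend and robust moderation.

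Side by side, 3 of the 9 detected probes had a log2 fold change above 0 and 6 below, with a median of -0.11, beside 9573 above and 9821 below and a median of -0.00 over all detected probes. The 6 below include KDM5C, on which the family was selected. They also include the dim KDM2B probe, which met the detection filter through the control arrays, in which its mean was higher. Nothing is read from this split.

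Among 12 further lysine demethylases, 11 had a probe and 10 were detected, by 12 probes. KDM4E had no probe named in the annotation used here, and the probes of HR were detected on 0 arrays. None of the 12 detected probes passed the adjusted threshold of limma (adjusted p between 0.299 and 0.998), and at an unadjusted p under 0.05 there was 1 lower and 0 higher by limma, and 1 by the methods' t-test, fitted to each probe alone. Over all detected probes 13.6% were past that level by limma and 13.2% by the methods' t-test. The lower probe was KDM1B, the relative of KDM1A, at -0.40 (SE 0.14, limma adjusted p = 0.299). It was detected on 1 array labelled NME2 induced and 3 control arrays, so that it met the detection filter through the group in which it was higher, and its p is partly set by the filter. The next smallest p belonged to PHF2, a JmjC protein of the KDM7 group, at 0.24 (SE 0.12, limma adjusted p = 0.423), with a second PHF2 probe at 0.07 (SE 0.17). KDM6A, the X-linked relative of KDM6B, was at -0.01 (SE 0.10), and KDM4C at -0.00 (SE 0.26). The median over the 12 probes was -0.05, with 3 above and 9 below 0.

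**Figure D3:**
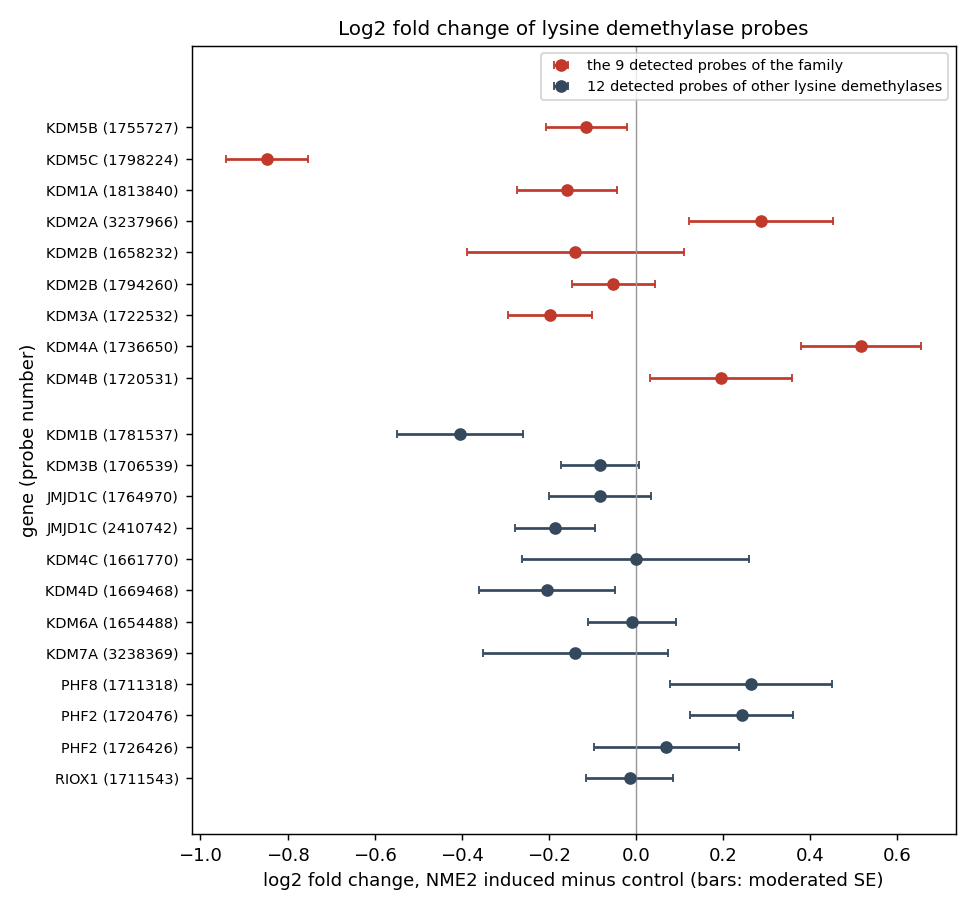
Log2 fold change (arrays labelled NME2 induced minus control arrays, x axis) with its moderated SE for the 9 detected probes of the family and the 12 detected probes of other lysine demethylases (y axis, gene and probe number). KDM5C at -0.85 and KDM4A at 0.52 lie farthest from 0 on either side.

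The enzymes that set the marks and the partners of the demethylases were taken from 7 lists, with 54 detected probes of 79. By limma 0 of them passed the adjusted threshold, with 3 higher and 1 lower at an unadjusted p under 0.05, and the methods' t-test gave 0 after adjustment and 6 at an unadjusted p under 0.05, where it gave 13.2% of all detected probes. Of the 3 higher probes, those of MEN1 and SUV39H2 met the detection filter through the arrays labelled NME2 induced, in which they were higher, so that their p is partly set by the filter. The median log2 fold change was 0.05, with 33 probes above and 21 below 0.

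Of the H3K4 methyltransferase complexes, whose mark KDM5C removes, 12 probes of 10 genes were detected, with a median log2 fold change of -0.03. The smallest p belonged to MEN1, or menin, a subunit of the KMT2A and KMT2B complexes, at 0.39 by 1 probe (ILMN_1721963, SE 0.13, limma adjusted p = 0.263). That probe was detected on 3 arrays labelled NME2 induced and 1 control array, and the second detected MEN1 probe was at 0.07 (SE 0.13). The core subunit ASH2L was at -0.13 (SE 0.08, limma adjusted p = 0.543), and KMT2A itself at 0.03 (SE 0.12).

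Among H3K9 methyltransferases, SUV39H2, which sets trimethylation of H3K9 in heterochromatin, was at 0.64 (SE 0.17, limma adjusted p = 0.195). It was detected on 3 arrays labelled NME2 induced and 1 control array. SETDB2 was at -0.15 (SE 0.09, limma adjusted p = 0.509), and the median over 7 probes was 0.06.

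Of the H3K27 methyltransferase complex PRC2, SUZ12 was at -0.20 (SE 0.08, limma adjusted p = 0.346) and EED at 0.09 (SE 0.10, limma adjusted p = 0.731), while the probes of its enzyme EZH2 were at -0.02 and 0.02. The H3K36 methyltransferase NSD1 was at 0.43 (SE 0.14, limma adjusted p = 0.261) by 1 probe and at -0.13 (SE 0.15) by another. NSD3 was at -0.24 (SE 0.16, limma adjusted p = 0.545) by the probe with the next smallest p, detected on 2 arrays labelled NME2 induced and 3 control arrays. Other detected NSD3 probes were at 0.25 (SE 0.17) and 0.13 (SE 0.20).

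Partners of KDM1A in the CoREST complex had a median of 0.12 over 6 probes. The deacetylase HDAC1 was at 0.16 (SE 0.09, limma adjusted p = 0.470) and the reader PHF21A at 0.12 (SE 0.08, limma adjusted p = 0.560). Partners of KDM2B in PRC1.1 had a median of 0.06 over 7 probes, with PCGF1 at 0.21 (SE 0.10, limma adjusted p = 0.430) and BCORL1 at 0.19 (SE 0.10, limma adjusted p = 0.469). In the Sin3 complex, a corepressor with which KDM5A is known to associate, the median was 0.06 over 11 probes, and the smallest p belonged to probes of ING1 at 0.30 (SE 0.14, limma adjusted p = 0.410) and of ARID4B at -0.44 (SE 0.25, limma adjusted p = 0.475). Other detected probes of these genes were at -0.07 for ING1 and at 0.29 and -0.15 for ARID4B, and the ARID4B probe at -0.44 was detected on 1 array labelled NME2 induced and 3 control arrays.

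**Figure D4:**
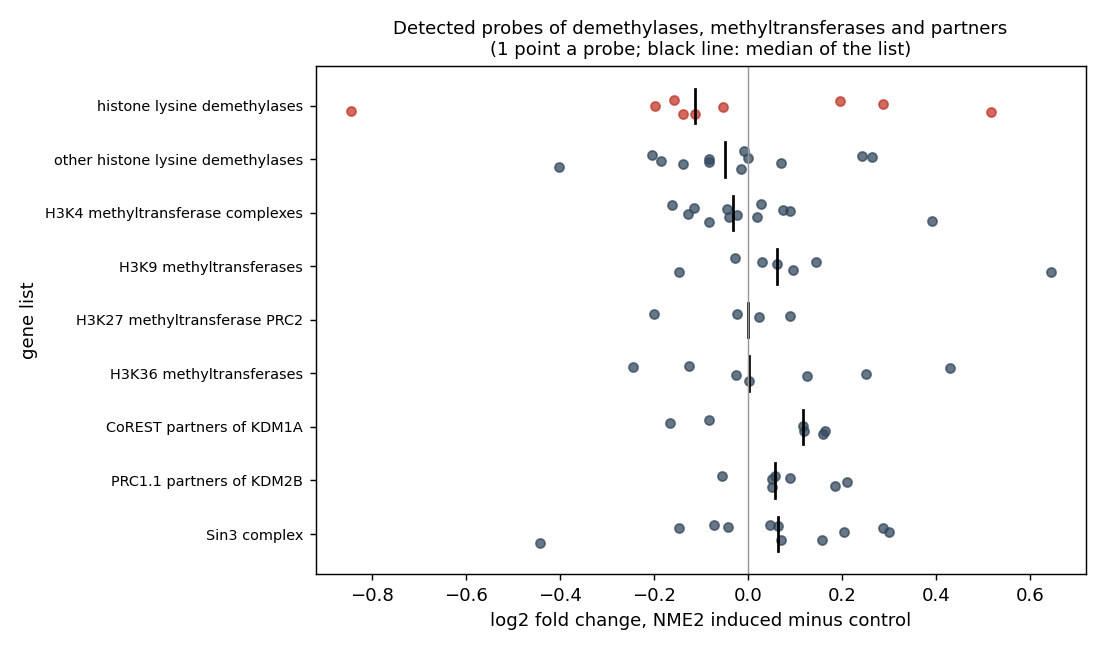
Log2 fold change (arrays labelled NME2 induced minus control arrays, x axis) of each detected probe of the demethylase family, the other demethylases and the 7 lists of methyltransferases and partners (y axis). Each point is a probe and the black line is the median of the list, which lies between -0.11 and 0.12 in each.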

How the data were processed

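The authors exported signal intensities and detection p-values from BeadStudio, per the file headers and the labels, with no version or settings given in the sources used here. The deposited intensities of the 6 arrays shared 1 minimum and 1 maximum, and between 26.6% and 26.8% were at or below 0, so that they appear background-subtracted and quantile-normalized although described as not normalized. The 2 deposited tables held equal intensities. Array brightness can therefore not be examined.

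With limma 3.58.1 in R 4.3.3, neqc modelled the background from the detection p-values, added an offset of 16 and quantile-normalized log2 values. The 19394 probes detected (deposited p-value under 0.05) on at least 3 arrays entered lmFit and eBayes, 2-sided, with Benjamini-Hochberg adjustment over all of them and a threshold of 0.05. Log2 fold changes are NME2 induced minus control, SE is moderated, and the median SE was 0.12. The script was tested on simulated data. Precision is limited by the 3 arrays a group, and no slide is named in the sources used here.

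In the platform annotation 30113 probes had 1 gene symbol, 8 had several and 17110 had none, and 30074 matched the reference gene table (GRCh38.p14 names). Probes are described separately. The members and lists were chosen with earlier results of these data known. Named were each probe of the 10 genes and, of each other list, probes past the threshold and the 2 with the smallest p; further probes were named after their values were seen. The alternatives were another background correction, offset or normalization, no or a stricter filter, and trend and robust moderation. Further ones were the t-test that the study names, a replicate block, 1 value a gene, the second table and leaving out each array. Without background correction, signals under 16 were set to 16 before log2 values were taken. That setting left out only the correction added here, as the deposited intensities appear background-subtracted already. The t-test was given the same Benjamini-Hochberg adjustment, which the paper does not name for its expression comparison.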

Additional observations from a re-analysis of the deposited data

How the results depend on the processing

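KDM5C stayed lower in the arrays labelled NME2 induced under all 18 alternatives and past the adjusted threshold under 10 of them. Among these 10, the second table holds equal intensities and so could not differ. The settings with 1 value a gene reuse the values of the single KDM5C probe. The filters, the moderation, the t-test and the replicate block leave its log2 fold change at -0.85 by design. As the groups did not overlap, leaving out 1 array could hardly turn the direction. KDM5C was also selected on this difference, so that its direction across settings is no independent support. KDM5C lost the call, leaving 0 of the family's probes past the adjusted threshold, under the methods' t-test and the replicate block (log2 fold change -0.85 in each). The adjustment of the t-test was added here and is not named in the paper. The call was also lost with any 1 array left out (between -0.90 and -0.78, with 0 probes of the family called each time). Across all detected probes 46 passed. That count was 278 with normexp without the control distribution, 235 with an offset of 50, 29 without a filter, 116 with the stricter filter, 476 with trend and robust moderation, 6 by the methods' t-test, 3 with the replicate block, 28 and 27 with 1 value a gene (brightest probe and mean of probes, over 11358 genes), and between 3 and 6 with 1 array left out. The cause was not tested, except that the last settings hold fewer genes or arrays.

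The dim KDM2B probe changed sign to 0.16 without background correction, a setting that also set signals under 16 to 16. Which of these steps changed the sign was not tested. The probe ran between -0.45 and 0.025 with 1 array left out, being above 0 without NME2 induced replicate 1 (0.025) or replicate 2 (0.0057). No other detected probe of the family changed sign. The other demethylases and the lists of methyltransferases and partners kept 0 calls under 16 alternatives each. As 0.237% of all detected probes passed in the fit as reported, 0 calls were likely for lists of 12 and 54 detected probes. The second table could not differ, so that little is read from these counts.

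Replicate numbers were not found to pair the arrays. Deviations of same-numbered arrays correlated at 0.0202, -0.0230 and -0.0223, and not every array correlated best with its own number, so the block result tests only a shared number. Near the detection limit, as for KDM5C, the size of a fold change depends on the offset.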
